A study of Mus musculus with 6 samples.

Results

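The annexins were followed in feeder-free mouse cell cultures of 2 types through 8 genes, Anxa1, Anxa2, Anxa3, Anxa4, Anxa5, Anxa6, Anxa7 and Anxa11, chosen by symbol from the 17710 genes listed in any of the deposited tables. All 8 were listed in each of the 6 libraries, and all 8 passed the filter on low counts. Extraembryonic endoderm (XEN) cells, a stem cell type of the lineage that gives rise to yolk sac endoderm, came from strain ICR and grew in RPMI1640 with FBS, Glut and BME. Embryonic stem (ES) cells, the cultured counterpart of the pluripotent epiblast, came from strain 129/Ola and grew on gelatin in N2B27-2iLIF. Total RNA was sequenced from 3 XEN and 3 ES libraries, lettered A to C in each group, on the BGISEQ-500 platform. Because strain and medium differ along with cell type, their parts in a difference cannot be told apart, and in bulk RNA fewer cells with a transcript and less of it per cell cannot be told apart either.

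Annexins are cytosolic proteins that bind acidic phospholipids, phosphatidylserine among them, when calcium is present. They share a core of repeated domains that carries the calcium sites, and differ in the N-terminal tail, where partners such as S100 and penta-EF-hand proteins bind. They act in endocytosis, exocytosis, membrane repair and the link between membranes and the actin cortex. Endoderm of the yolk sac is a tissue of intense uptake and secretion.

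Each library held between 20675311 and 22375875 expected counts, so that 3 counts amounted to 0.134 to 0.145 CPM (counts scaled to a common library total) before composition scaling. The cell type labels matched their markers. All 6 XEN markers were higher in XEN cells, with a summed level of 4960 to 5274 CPM in XEN libraries and 4.66 to 5.39 CPM in ES libraries. All 6 ES markers were lower in XEN cells, at 160 to 181 CPM in XEN libraries, most of it Klf4, and 4281 to 4373 CPM in ES libraries. Of the 8 fibroblast or feeder markers 6 were listed, and they summed to 0.447 to 0.699 CPM in XEN libraries and 2.90 to 3.43 CPM in ES libraries. Most of that ES sum was Thy1, with a mean of 2.85 CPM in ES cells and 0.174 CPM in XEN cells. Trophoblast markers summed to 9.09 to 10.3 CPM in XEN and 82.2 to 85.9 CPM in ES libraries. Among those tested, Cdx2 and Gata3 were higher in XEN cells, and Eomes, Tfap2c and Krt7 were lower. Most of the ES sum was Tfap2c, with a mean of 58.7 CPM, and Eomes, with 22.2 CPM. Blood cell markers summed to 9.285 to 13.005 CPM in XEN and 21.0 to 23.7 CPM in ES libraries. The blood cell markers went both ways: Csf1r made most of the XEN sum, with 579 counts over the XEN libraries and 3 over the ES libraries, while Cd68 and Spi1 were lower in XEN cells. The part of these other marker genes in the annexin differences was not tested.

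XEN cells differed from ES cells at every one of the 8 annexin genes, but in both directions and by very different amounts. Anxa2, Anxa3, Anxa5, Anxa4 and Anxa6 were higher in XEN cells, and Anxa11, Anxa1 and Anxa7 were lower. The call was made by the quasi-likelihood test of edgeR on expected counts, with p-values adjusted over all 13581 genes tested. A call was common in this comparison: 88.7% of tested genes passed in either direction, 42.0% as higher in XEN cells and 46.7% as lower, so that 5 higher and 3 lower of 8 annexins is no pattern particular to the family. The 3 XEN values lay apart from the 3 ES values for 8 of 8 annexins, as for 89.4% of tested genes. Against a change of 2-fold, Anxa2, Anxa3 and Anxa5 passed as higher, beside 19.3% of tested genes, and Anxa11 passed as lower, beside 23.4% of tested genes. The median log2 fold change of the 8 genes was 0.66, with a range of -1.93 to 5.18, and that of all tested genes was -0.07.

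**Figure D1:**
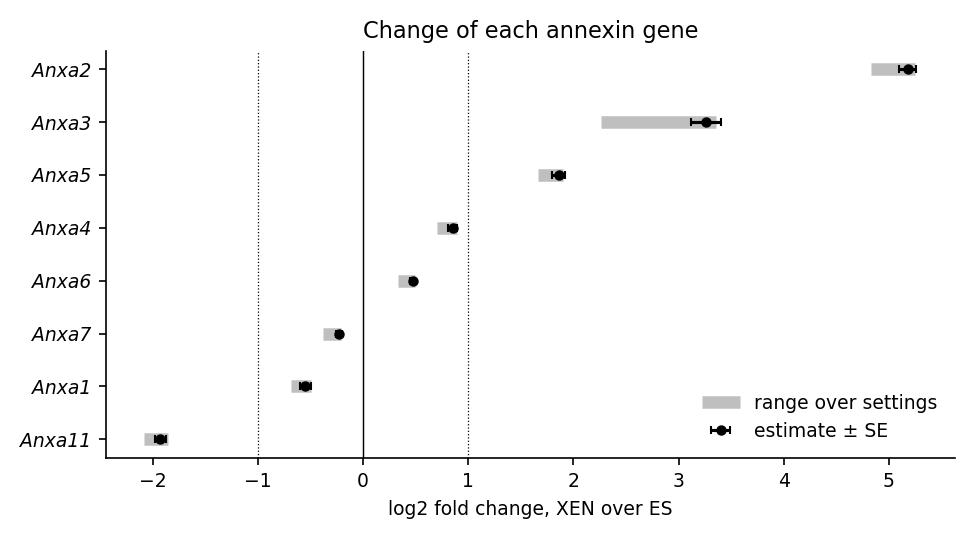
Log2 fold change of the 8 annexin genes, XEN over ES, on the horizontal axis, with bars for the standard error over 3 libraries of each group. Anxa2 stands farthest right at 5.18 and Anxa11 farthest left at -1.93, while Anxa1, Anxa4, Anxa6 and Anxa7 lie within a 2-fold change.

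Start regions are shown for 3 of the 4 genes that passed against a 2-fold change. RefSeq promoter windows, from 250 bases before the start to 50 bases after it on build GRCm38.p6, were at hand for 6 of the 8 genes, all but Anxa3 and Anxa6. Those of Anxa2 (chr9:69453433-69453732, plus strand), Anxa5 (chr3:36475838-36476137, minus strand) and Anxa11 (chr14:25841905-25842204, plus strand) are printed 5′ to 3′ along the gene, together with that of Anxa1 (chr19:20390622-20390921, minus strand), which has the fewest CpG of these 4. Capitals mark matches to any of the motifs searched.
Anxa2: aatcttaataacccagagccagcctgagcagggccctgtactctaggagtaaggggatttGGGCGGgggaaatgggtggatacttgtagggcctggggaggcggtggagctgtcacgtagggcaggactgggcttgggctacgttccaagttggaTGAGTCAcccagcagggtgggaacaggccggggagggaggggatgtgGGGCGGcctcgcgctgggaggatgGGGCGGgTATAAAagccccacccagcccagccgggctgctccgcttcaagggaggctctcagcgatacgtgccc
Anxa5: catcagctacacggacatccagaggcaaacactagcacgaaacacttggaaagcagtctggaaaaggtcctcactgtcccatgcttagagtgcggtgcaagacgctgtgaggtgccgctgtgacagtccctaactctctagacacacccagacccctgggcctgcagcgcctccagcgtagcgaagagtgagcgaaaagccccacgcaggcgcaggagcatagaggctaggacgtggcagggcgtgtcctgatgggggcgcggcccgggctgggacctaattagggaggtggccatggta
Anxa11: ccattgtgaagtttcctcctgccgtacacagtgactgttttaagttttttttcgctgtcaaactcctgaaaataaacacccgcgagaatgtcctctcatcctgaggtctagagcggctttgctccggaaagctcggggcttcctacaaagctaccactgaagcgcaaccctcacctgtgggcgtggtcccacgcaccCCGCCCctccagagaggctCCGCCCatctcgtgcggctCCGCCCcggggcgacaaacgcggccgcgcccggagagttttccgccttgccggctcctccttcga
Anxa1: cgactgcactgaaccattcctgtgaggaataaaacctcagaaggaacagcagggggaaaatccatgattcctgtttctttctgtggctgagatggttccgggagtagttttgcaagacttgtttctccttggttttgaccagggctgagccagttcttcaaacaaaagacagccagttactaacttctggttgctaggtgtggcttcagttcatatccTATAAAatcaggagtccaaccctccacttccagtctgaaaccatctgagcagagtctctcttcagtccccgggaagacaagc
The motifs were searched on both strands, and none of the matches shown overlap. They were the GC box GGGCGG, present in 35.7% of the 32851 promoter windows of the genome, the TATA box TATAAA, in 13.6%, the CCAAT box CCAAT, in 37.4%, the AP-1 site TGANTCA, in 7.81%, and the GATA site AGATAA, in 11.2%. The Anxa2 window held a GC box with its first base at -190, -48 and -24 from the start, a TATA box at -17 and an AP-1 match at -95, with 13 CpG. The Anxa11 window held 25 CpG and a GC box on the other strand at -53, -34 and -15. None of these motifs was in the Anxa5 window, which had 16 CpG. The Anxa1 window had a TATA box at -32 and 3 CpG, against a median of 7 CpG over all windows. A match is a description of these letters and shows no binding.

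Anxa2 had the largest difference of the family. Its protein joins S100A10 into a complex at the plasma membrane that binds actin, tissue plasminogen activator and plasminogen. Anxa2 (gene 12306, chromosome 9) stood at 184, 203 and 190.4 FPKM in XEN libraries A, B and C, against 6.34, 5.54 and 5.50 FPKM in ES libraries A, B and C. Every XEN library was far above every ES library, and the 3 libraries of a type lay close together. By the counts the XEN level was 36.3-fold higher (log2 5.18 ± 0.08, SE; adjusted p of 5.94e-25 by edgeR). It ranked 472 of 13581 tested genes by fold change. Its FPKM was above that of 96.9% of tested genes in XEN cells and of 40.9% in ES cells.

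Anxa3, whose product was among the lipocortins first studied as inhibitors of phospholipase A2, was at a middling level in XEN cells, above 50.4% of tested genes in FPKM, and at a low one in ES cells, above 17.3%. Anxa3 (gene 11745, chromosome 5) read 8.82, 7.90 and 8.34 FPKM in XEN libraries, against 0.99, 0.78 and 1.08 FPKM in ES libraries. The groups did not overlap, although the ES values rested on only 26 to 36 counts per library, against 266 to 298 in XEN libraries. The log2 fold change was 3.26 ± 0.14 (SE), or 9.58-fold, with an adjusted p of 2.18e-15 by edgeR.

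Anxa5 encodes the annexin used as a probe for phosphatidylserine on dying cells. It (gene 11747, chromosome 3) had 47.0, 44.4 and 48.0 FPKM in XEN libraries, against 14.2, 14.6 and 13.1 FPKM in ES libraries. All XEN values were above all ES values, by 3.63-fold in the counts (log2 1.86 ± 0.06, SE; adjusted p of 2.59e-18 by edgeR).

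Anxa4 and Anxa6 were also higher in XEN cells, by less than 2-fold. The protein of Anxa4 binds membranes in secretory epithelia. Anxa4 (gene 11746, chromosome 6) was at 59.2, 58.1 and 53.9 FPKM in XEN libraries, against 34.6, 34.0 and 35.1 FPKM in ES libraries. Its XEN libraries were all above its ES libraries, and its log2 fold change was 0.85 ± 0.04 (SE), or 1.80-fold (edgeR adjusted p 1.49e-13). Anxa6, whose product carries a duplicated core and acts in endocytosis and cholesterol traffic, is gene 11749 on chromosome 11. Anxa6 was at 48.5, 49.9 and 50.5 FPKM in XEN libraries, against 39.2, 39.5 and 38.4 FPKM in ES libraries. The groups lay apart again, but the difference was only 1.39-fold (log2 0.47 ± 0.02, SE; edgeR adjusted p 4.26e-10). Neither gene passed the test against a 2-fold change.

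Anxa11 went the other way and was the one member lower in XEN cells by more than 2-fold. Annexin A11 has a long disordered tail and tethers RNA granules to lysosomes. Anxa11 (gene 11744, chromosome 14) stood at 12.03, 11.78 and 13.01 FPKM in XEN libraries, against 51.2, 52.8 and 49.5 FPKM in ES libraries. No XEN library came near the ES libraries. The log2 fold change was -1.93 ± 0.05 (SE), which is 3.81-fold higher in ES cells, with an adjusted p of 3.34e-19 by edgeR. Reads of Anxa11 were split with an unnamed gene model that carries an annexin A7/11 orthology term: the expected counts of both summed to a whole number, within 0.011, in 6 of 6 libraries, and those of Anxa11 alone in 0 of 6. The unnamed model took 11.5%, 6.81% and 2.23% of the sum in XEN libraries A, B and C and 2.64%, 1.78% and 2.95% in ES libraries, and with it added the log2 fold change of Anxa11 was -1.86.

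Anxa1 and Anxa7 were lower in XEN cells by smaller steps. Anxa1, a glucocorticoid-induced protein known for limiting inflammation, is gene 16952 on chromosome 19. Anxa1 was at 6.08, 6.08 and 5.52 FPKM in XEN libraries, against 9.27, 9.23 and 9.73 FPKM in ES libraries. Its groups did not overlap, and its log2 fold change was -0.55 ± 0.05 (SE), with an adjusted p of 1.67e-05 by edgeR. Anxa7, which encodes synexin, a protein that promotes membrane fusion, is gene 11750 on chromosome 14. Anxa7 was at 44.4, 45.3 and 44.4 FPKM in XEN libraries, against 56.5, 56.2 and 59.7 FPKM in ES libraries. All XEN values lay below all ES values, but the difference in counts was the smallest of the 8 genes, at 1.18-fold higher in ES cells (log2 -0.23 ± 0.03, SE; edgeR adjusted p 1.64e-05). Neither Anxa1 nor Anxa7 passed against a 2-fold change.

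**Figure D2:**
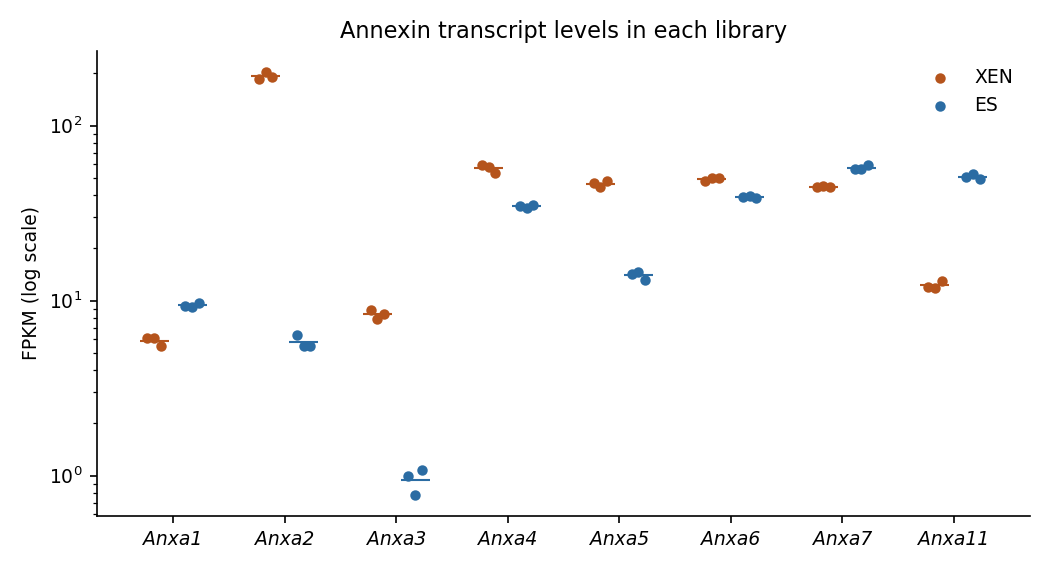
Level of each annexin gene in FPKM on a log axis, with a point for each of the 3 XEN libraries to the left of the 3 ES libraries and a bar at the mean. Libraries of a type sit close together, and Anxa2 lies at 184 to 203 FPKM in XEN cells and 5.50 to 6.34 FPKM in ES cells.

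In GENCODE vM21 on GRCm38, exons of Anxa2, Anxa4 and Anxa11 overlap exons of a gene on the opposite strand (Gm16144, Gm44036 and Anxa11os), and an exon of Anxa3 overlaps Gm42603 on the same strand. Whether reads were counted by strand is not given in the sources used here, so reads of these pairs may not have been told apart. Anxa6 and Anxa7 overlap no other gene.

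The order of the family also differed between the cell types. FPKM is scaled by transcript length, so members can be set beside each other. In XEN cells Anxa2 came first with 192 ± 9.41 FPKM (SD, n = 3), 3.37 times the mean of Anxa4 at 57.1 ± 2.81 FPKM. Anxa6 followed with 49.6 ± 1.05 FPKM, then Anxa5 with 46.5 ± 1.86 FPKM and Anxa7 with 44.7 ± 0.532 FPKM, whose ranges over libraries overlapped. Anxa11 was next in XEN cells, after a step of 3.64 times, with 12.3 ± 0.650 FPKM, and Anxa3 at 8.35 ± 0.460 FPKM and Anxa1 at 5.89 ± 0.323 FPKM came last. Apart from Anxa5 and Anxa7, no neighbours in the XEN order overlapped. In ES cells Anxa7 was first with 57.5 ± 1.96 FPKM, and Anxa11 second with 51.2 ± 1.68 FPKM. Anxa6 had 39.04 ± 0.533 FPKM in ES cells, Anxa4 34.5 ± 0.505, Anxa5 13.98 ± 0.766 and Anxa1 9.41 ± 0.278. Anxa2, first in XEN cells, was next to last in ES cells with 5.79 ± 0.474 FPKM, 6.10 times Anxa3 at 0.950 ± 0.154 FPKM. No neighbours overlapped in the ES order.

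Summed over the 8 genes, annexin transcripts came to 410.2, 426 and 414 FPKM in XEN libraries and 212.3, 212.7 and 212.1 FPKM in ES libraries. The groups lay apart, 1.96-fold (log2 0.97) at the means, with an exact two-sided permutation p of 0.1, the smallest that 3 libraries against 3 allow. Anxa2 made most of this difference: without it the sum was 224 ± 1.40 FPKM in XEN cells and 206.6 ± 0.598 FPKM in ES cells (SD, n = 3), or 1.09-fold (exact p 0.1). Scaled to the same total per library (TPM), a choice added after the data were seen, the sum without Anxa2 was 1.19-fold higher in XEN cells. As a share of all FPKM in a library, the sum of all 8 genes was 0.0840% in XEN cells and 0.0392% in ES cells, or 2.14-fold.

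The makeup of the pool shifted with Anxa2. Anxa2 was 46.2% ± 1.33 of the summed annexin FPKM in XEN cells and 2.73% ± 0.224 in ES cells (SD, n = 3). The members that led the ES pool took smaller shares in XEN cells. Anxa7 held 10.7% ± 0.0991 in XEN cells and 27.1% ± 0.949 in ES cells, and Anxa11 held 2.95% ± 0.189 in XEN cells and 24.1% ± 0.759 in ES cells. Anxa6 held 11.9% ± 0.261 in XEN cells and 18.4% ± 0.231 in ES cells, although its own level was higher in XEN cells. Anxa4 had a somewhat smaller share in XEN cells, with 13.7% ± 0.711 in XEN cells and 16.3% ± 0.258 in ES cells. By CPM, which is not per length, the order of the Anxa4 shares was reversed, at 15.0% in XEN cells and 13.6% in ES cells. Anxa5 and Anxa3 had larger shares in XEN cells: Anxa5 had 11.2% ± 0.641 in XEN cells and 6.58% ± 0.353 in ES cells, and Anxa3 had 2.01% ± 0.148 in XEN cells and 0.447% ± 0.073 in ES cells. Anxa1 made 1.41% ± 0.0753 of the pool in XEN cells and 4.43% ± 0.135 in ES cells.

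**Figure D3:**
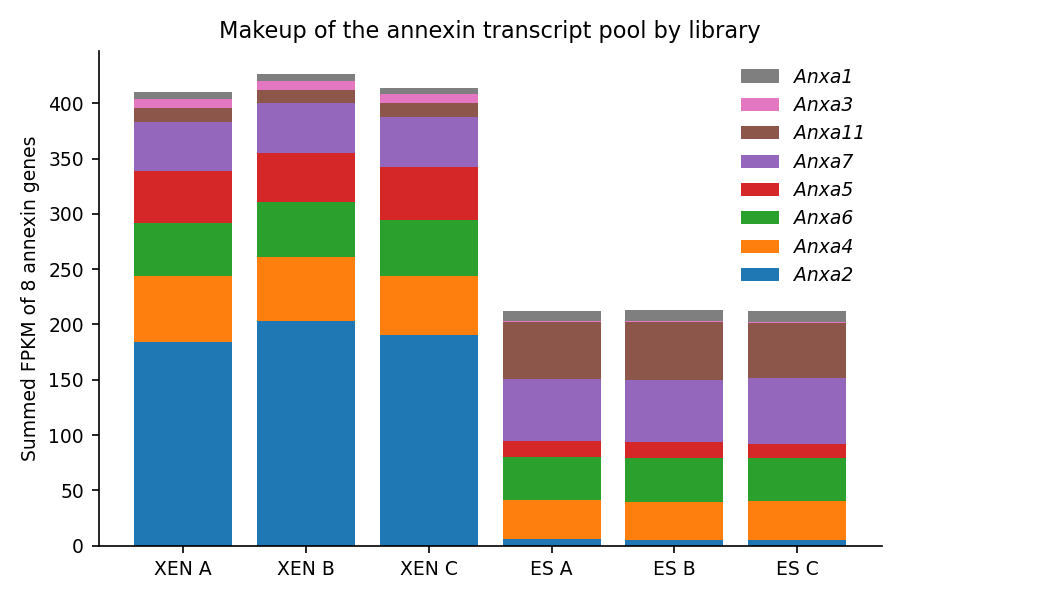
Summed FPKM of the 8 annexin genes in each library, XEN libraries left of ES libraries, with a coloured block per gene. The XEN columns reach 410.2 to 426 FPKM with Anxa2 as the widest block, and the ES columns reach 212.1 to 212.7 FPKM.

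The files listed 4 more annexin genes. Anxa8 (gene 11752, also on chromosome 14), a calcium-binding annexin first described as an anticoagulant protein, was at 7.62, 7.59 and 7.22 FPKM in XEN libraries, against 0.51, 0.92 and 0.95 FPKM in ES libraries. Its FPKM was above that of 48.0% of tested genes in XEN cells and of 15.9% in ES cells. By the counts it was 10.2-fold higher in XEN cells (log2 3.36 ± 0.27, SE; edgeR adjusted p 6.18e-15). Anxa9 had 11, 11 and 20 counts in XEN libraries and 19, 10 and 10 in ES libraries. Its groups overlapped, and its log2 fold change of 0.21 ± 0.40 (SE) did not pass (edgeR adjusted p 0.597). Anxa13 had 4, 3 and 2 counts in XEN libraries and none in ES libraries. With ES cells set at 3 counts over the group the ratio was 3.23, which leaves out the counting error of the few XEN counts. Anxa10 had no count in XEN libraries and 2 counts in ES library A alone. Anxa10 and Anxa13 were under the filter and were not tested.

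Annexin transcripts were then set against those of S100 and penta-EF-hand proteins known to join annexins, by the log2 ratio of FPKM within each library, for 5 pairs. In every pair the 3 XEN ratios lay apart from the 3 ES ratios, each with an exact two-sided permutation p of 0.1 (0.1 adjusted over the 5 pairs), the smallest the design allows. Single genes lay apart in this way for 89.4% of all tested genes, so separation of the ratios is not particular to these pairs.

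S100a10, the partner of annexin A2, was at 176, 182 and 170.4 FPKM in XEN libraries, against 84.8, 80.3 and 80.6 FPKM in ES libraries. It was 2.33-fold higher in XEN cells by the counts (edgeR adjusted p 2.46e-16), a far smaller difference than that of Anxa2. The log2 ratio of Anxa2 to S100a10 was therefore 0.13 ± 0.05 in XEN cells and -3.82 ± 0.07 in ES cells (SD, n = 3). Anxa2 and S100a10 were near parity in XEN cells, with a ratio of 1.09, whereas in ES cells S100a10 was 14.2 times Anxa2.

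S100a11, which binds the tail of annexin A1, was at 268, 275 and 281 FPKM in XEN libraries, against 119, 118 and 129 FPKM in ES libraries. It was higher in XEN cells (2.43-fold, edgeR adjusted p 1.68e-16) while Anxa1 was lower. S100a11 was 46.6 times Anxa1 in XEN cells and 12.96 times in ES cells, a change of the log2 ratio of Anxa1 to S100a11 of -1.85 ± 0.07 (SE).

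Annexin A11 has a pair of partners here, S100A6, also called calcyclin, and the penta-EF-hand protein ALG-2, the product of Pdcd6. S100a6 stood at 19.1, 16.01 and 12.7 FPKM in XEN libraries, against 0.55, 0.89 and 0.44 FPKM in ES libraries. Its log2 fold change was 4.76 ± 0.29 (SE; edgeR adjusted p 6.25e-13). Anxa11 was 0.781 times S100a6 in XEN cells and 85.3 times in ES cells, and the log2 ratio changed by -6.77 ± 0.34 (SE). The ES values of S100a6 rest on 25 counts over 3 libraries, and with FPKM + 1 the log2 ratio changed by -5.35; either way it was the widest shift of the 5 pairs. Pdcd6 stood at 61.7, 67.3 and 62.6 FPKM in XEN libraries, against 38.7, 38.6 and 40.3 FPKM in ES libraries, 1.78-fold higher in XEN cells (edgeR adjusted p 2.41e-13). The ratio of Anxa11 to Pdcd6 was 0.192 in XEN cells and 1.31 in ES cells, so that the more abundant gene of the pair was Pdcd6 in XEN cells and Anxa11 in ES cells.

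Sri encodes sorcin, a calcium-binding partner of annexin A7. It was at 21.1, 19.9 and 19.0 FPKM in XEN libraries, against 10.4, 9.80 and 10.4 FPKM in ES libraries, with a log2 fold change of 1.10 ± 0.05 (SE; edgeR adjusted p 1.38e-13). Anxa7 was 2.24 times Sri in XEN cells and 5.63 times in ES cells. In all 5 pairs the partner was called higher in XEN cells, as were 42.0% of all tested genes. Anxa2 was the only annexin of the pairs whose ratio to its partner was also higher in XEN cells. Anxa1, Anxa7 and Anxa11 were themselves lower in XEN cells, so their lower ratios follow from the single-gene calls.

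**Figure D4:**
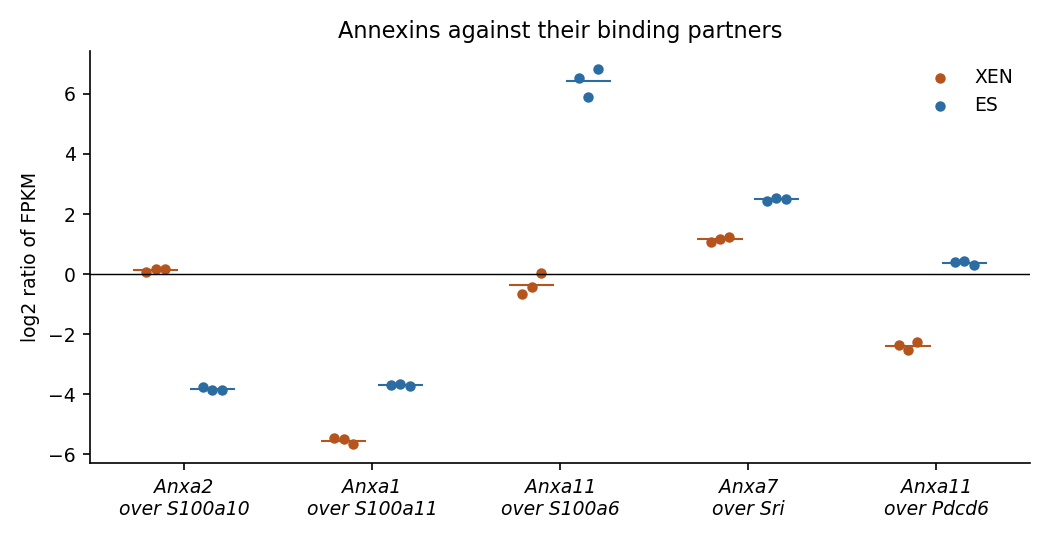
Log2 ratio of FPKM of an annexin to its partner in each library, XEN points left of ES points, for 5 pairs. The ratio of Anxa2 to S100a10 is higher in XEN cells (mean 0.13, against -3.82 in ES cells), and the other 4 ratios are lower, with the widest gap for Anxa11 and S100a6.

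Genes that act beside annexins were counted by list against the 42.0% of tested genes called higher and the 46.7% called lower, with a median log2 fold change of -0.07 over all tested genes. Of 7 tested S100 genes 5 were higher in XEN cells and 0 lower, with a median log2 fold change of 1.28. Among them was S100g, a calcium buffer called calbindin-D9k, with 53.1, 52.7 and 48.6 FPKM in XEN libraries and none in ES libraries, at least 453-fold higher in XEN cells when ES cells are set at 3 counts over the group. Of 7 penta-EF-hand genes 4 were higher and 2 lower, with a median of 0.64. The protease subunit gene Capn2 was at 38.8 ± 2.07 FPKM in XEN cells and 2.55 ± 0.286 in ES cells (log2 4.06 ± 0.10, SE), whereas Capn1 was lower (log2 -0.78 ± 0.02, SE). Gca was lower by far more, at 0.02 FPKM in XEN cells and 3.26 FPKM in ES cells (log2 -6.86). It had 5 counts over the XEN libraries and 672 over the ES libraries.

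The plasminogen list touches Anxa2 most directly, since the annexin A2 complex binds tissue plasminogen activator. Of its 6 tested genes 5 were higher in XEN cells and 1 lower, with a median log2 fold change of 3.24. Plat, the gene of that activator, was at 81.5 ± 1.88 FPKM in XEN cells and 0.353 ± 0.102 FPKM in ES cells (log2 7.98 ± 0.21, SE). The members did not all act one way on the protease: Serpine2, an inhibitor of the activators, was also higher (51.9 ± 0.455 FPKM in XEN cells, 4.63 ± 0.349 FPKM in ES cells). Plg, the gene of plasminogen itself, had 12 counts over the XEN libraries and 1 over the ES libraries.

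Membrane repair and phosphatidylserine genes were mixed. Of 16 ESCRT-III and associated genes 9 were higher and 4 lower, with a median log2 fold change of 0.32, and with upper-quartile scaling 8 were higher and 7 lower. Pdcd6ip, whose product ALIX binds ALG-2, was higher (log2 1.19 ± 0.04, SE) and Chmp4c was lower (log2 -5.22 ± 0.22, SE). Of 5 tested ferlin and repair scaffold genes 1 was higher and 3 lower, with a median of -0.84, and with no filter on low counts 2 were higher and 4 lower. Ahnak, which encodes a giant scaffold bound by the annexin A2 complex, was the tested one that was higher (log2 1.24 ± 0.15, SE), and Myof and Cavin1 were lower. Of 9 copine and extended synaptotagmin genes, whose products also bind lipids with calcium, 4 were higher and 5 lower, with a median of -0.73. Of 17 scramblase and flippase genes 8 were higher and 7 lower, with a median of 0.01. Tmem30a, the subunit shared by most flippases, was higher, at 56.3 ± 1.16 FPKM in XEN cells and 18.1 ± 0.538 FPKM in ES cells (log2 1.77 ± 0.03, SE).

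Formyl peptide receptors, through which annexin A1 acts outside the cell, had no gene in the files. Of 5 cytosolic phospholipase A2 genes 1 was higher and 3 lower, with a median log2 fold change of -3.10, and when a mean of 1 CPM or more was required, 1 was higher and 1 lower. Pla2g4e was without a count in XEN libraries and at 7.80, 8.54 and 8.32 FPKM in ES libraries, at least 684.6-fold lower in XEN cells when XEN cells are set at 3 counts over the group. Of 17 tested genes of calcium entry, stores and calmodulin 8 were higher and 6 lower, with a median of 0.11. The store pump gene Atp2a2 was higher (log2 1.07 ± 0.04, SE), and the pump gene Atp2a3 was lower (log2 -8.08 ± 0.35, SE). Atp2a3 had only 15 counts over the XEN libraries, against 4469 over the ES libraries.

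**Figure D5:**
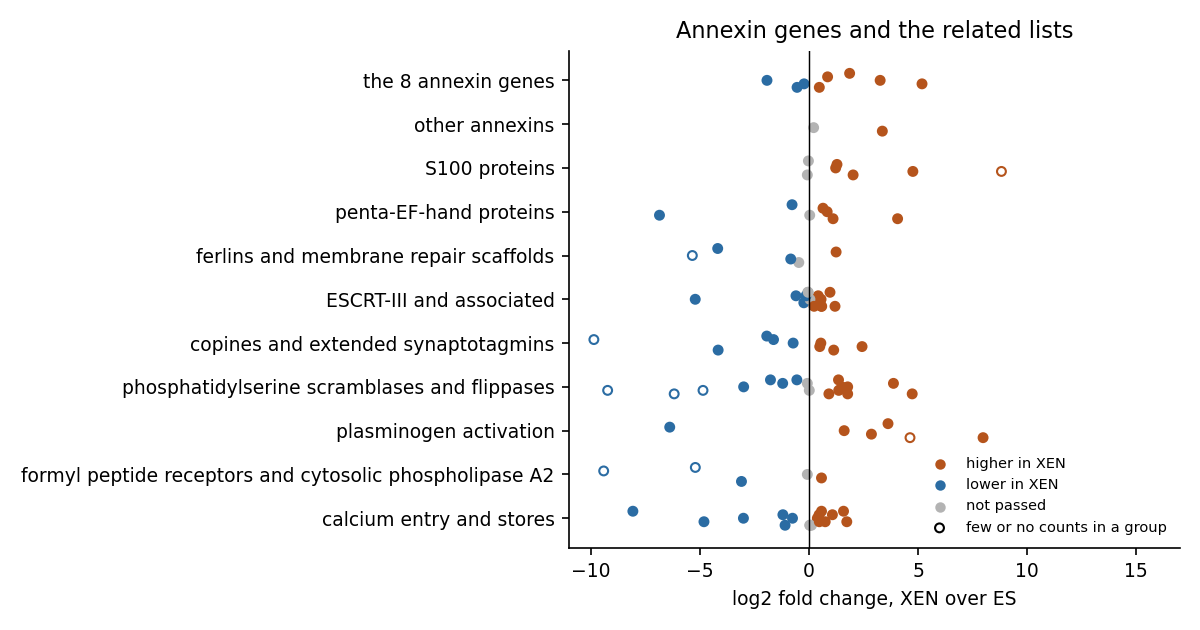
Log2 fold change, XEN over ES, of the tested genes of each list, 1 point per gene, coloured by call. Open circles are genes with 3 counts or fewer in a group, drawn at their bound or count ratio. No called S100 gene lies left of 0, and the other related lists, apart from the other annexins, spread to both sides.

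The genes whose levels came nearest to those of Anxa2 over the 6 libraries, by Euclidean distance of log2(CPM + 1), were Abhd5 at 0.604, Zyx at 0.710 and Rcn3 at 0.724. Anxa2 itself averaged 255 ± 11.5 CPM in XEN cells and 7.03 ± 0.574 CPM in ES cells, and Zyx averaged 273 ± 9.95 CPM in XEN cells and 5.29 ± 0.714 CPM in ES cells. Abhd5 encodes an activator of triglyceride lipase, Zyx the focal adhesion protein zyxin and Rcn3 a calcium-binding protein of the endoplasmic reticulum. Nearest to Anxa7, the first annexin of ES cells, were Csrp2 at 0.102, Dync1i2 at 0.119 and Rbm17 at 0.128. The 6 libraries form 2 groups, so such a distance rests largely on the 2 group means.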

How the data were processed

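The deposited tables, 1 per library, gave expected counts per gene and FPKM. The genome build mm9 and the tools Bowtie2, RSEM and DESeq2 are named, without versions or roles, in the submitters' processing notes. The expected counts deposited by the authors are estimates that share ambiguous reads among gene models, and the authors' FPKM values divide them by transcript length and library size. Genes missing from a library's table were set to 0.

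Expected counts were rounded, filtered with filterByExpr (13581 genes) and scaled by TMM. XEN and ES libraries were compared by the robust quasi-likelihood F test of edgeR 4.0.16 (R 4.3.3) with group as the only term, Benjamini-Hochberg adjustment over all tested genes at 0.05, and glmTreat against 2-fold. The biological coefficient of variation was 4.75%. Standard errors of log2 fold changes were taken from log2 CPM with a prior count of 2 in both groups, which narrows the spread where counts are few. For bounds, a group with 0 counts was set at 3, and the counts of the other group were taken as they are. Intervals and floors cover counting error only. Sums and ratios were tested by exact permutation.

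The genes, lists and pairs were chosen with earlier results of these data known. Named were the 8 genes and every other annexin, both genes of each pair, of each list the most abundant member and up to 2 called members per direction with the widest change (mean of at least 5 CPM), and the 3 nearest genes of the leading annexin of each cell type. The text gives a part of the list genes, and some are not reported here; Plg was named after its values were seen. Separate cultures are not stated in the labels, so p-values measure only the spread between these libraries, possibly technical. No libraries were alike within sampling noise. Other settings tried were no filter or a minimum mean of 1 CPM, scaling by RLE, by upper quartiles or without factors, a block for the replicate letter, leaving out each library, DESeq2 1.42.0, limma-voom and limma-trend on log2 FPKM (limma 3.58.1), and summing the unnamed model into Anxa11. The fit was checked on simulated data. Promoter sequences are from RefSeq.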

Additional observations from a re-analysis of the deposited data

How the results depend on the processing

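All 8 annexins kept their direction and passed 0.05 under each of 18 settings (scaling, filter, block, left-out library, test and model), with adjusted p of at most 0.000321. Their log2 fold changes ran from -0.69 to -0.50 for Anxa1, 4.83 to 5.25 for Anxa2, 2.26 to 3.36 for Anxa3, 0.70 to 0.89 for Anxa4, 1.66 to 1.90 for Anxa5, 0.33 to 0.49 for Anxa6, -0.38 to -0.21 for Anxa7 and -2.08 to -1.86 for Anxa11. Upper-quartile scaling and no composition factors moved the median of all tested genes by -0.15 and -0.13 on the log2 scale. Tested against 2-fold instead of no change, 2621 genes were higher and 3175 lower, with 3 and 1 of the annexins, and the changes of -0.55 (Anxa1), 0.85 (Anxa4), 0.47 (Anxa6) and -0.23 (Anxa7) no longer passed, which the wider threshold sets. By CPM, which is not per length, Anxa2 was 33.5% of the pool in XEN cells and Anxa7 32.6% in ES cells. Anxa9, which did not pass, ran from -0.16 (without XEN library C) to 0.61 as libraries were left out. The letters are not said to pair the libraries. Deviations of same-letter libraries correlated at only 0.0327, 0.00761 and 0.0199, but each library correlated best with its own letter, so pairing was not settled. With the letter as a replicate block, 5682 genes were higher and 6318 lower, 5 and 3 of them annexins, with Anxa1 at -0.55 and Anxa7 at -0.23. Anxa3, Anxa8, Anxa9 and S100a6 in ES cells rest on few counts. No annexin comparison changed its side of the exact test, which cannot go below 0.1 with 3 libraries against 3.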
